A study of Chrysanthemum x morifolium with 12 samples.

Results

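Mature leaves of chrysanthemum were compared with the greenest petals of the series. FG leaf is the mature leaf of Feeling Green (FG), and FGD petal is the ray floret petal of Feeling Green Dark (FGD) at stage 2, the middle stage of flower development, when the outer florets start to open. The 3 FG leaf arrays and the 3 FGD petal arrays were chosen by their sample titles, which makes 6 of the 12 arrays in the series. The other 6 arrays hold stage 2 petals of FG and of Feeling White (FW), 3 of each, and are given only where they show how far a petal stood from the leaf. FGD and FW are bud sports of FG, and all plants stood in a greenhouse under natural daylight. No FGD leaf was analysed here, so tissue and cultivar differed at the same time and cannot be told apart in this comparison. Values of FG petals, which have the cultivar of the leaves, are therefore set beside those of FGD petals, and the leaf arrays are shared between them. The question was which transcripts a green petal has at the level of a leaf and which it does not.

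Chlorophyll (Chl) is built from glutamate in the plastid. The first steps lead to protoporphyrin IX, a precursor shared with heme, and insertion of Mg by Mg-chelatase commits it to Chl. Chl a and Chl b are converted into each other in the Chl cycle, and Chl a enters degradation when its Mg is removed. Leaf mesophyll is the main site of this pathway, whereas most petals lose Chl as they open.

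Expression levels are log2 intensities minus the 75th percentile of the same array, over 176026 probes designed on 1 contig each. A level of 0 is thus the 75th percentile, and levels of different probes are not comparable. A difference is FG leaves minus FGD petals on the log2 scale, given with its SE from limma, which also gave the adjusted p values after the Benjamini-Hochberg method. The files name no gene, and probes were named only through the gene lists of the study. The 75th percentile was 188 to 209 in FG leaves and 308 to 347 in FGD petals, and the detected share of probes, those well above background by the scanner software, was 63.2% to 65.2% in FG leaves against 67.0% to 69.6% in FGD petals. Probes not well above background are called below background or dark, although their signal need not lie under the background. The brightest 1% of probes took 59.5% to 61.4% of the signal in FG leaves and 56.4% to 57.4% in FGD petals. The 3 FG leaf arrays and FGD petal replicate 3 were on 1 slide, and FGD petal replicates 1 and 2 on another. All FG petal arrays were on a slide without FG leaf or FGD petal arrays. A difference of FG leaves from FG petals is therefore also a difference between slides. Fewer cells of a type and less RNA per cell cannot be told apart in such bulk samples.

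The steps on which the comparison turns were also the targets of the RT-qPCR primers designed in the study, and these are shown as the designed sequences that go with the gene names used below. They are not the array probes, whose sequences were not used here, and their match to the probes was not tested. Each primer is written 5′ to 3′.
CHLH forward: accaaatgcttatattgccgacac
CHLH reverse: agcctcttctcaatttcacgaaca
CRD forward: gtcatcattgagacaaaccgcact
CRD reverse: aagttcttcaccaacgggatgtca
PORC forward: gttcgccaatttgtggacacg
PORC reverse: atctagcaacaacctcgaaagaaga
HCAR forward: gctgctttgactacacaaacggat
HCAR reverse: attcagcatttctcttccgcgttc
SGR forward: ctcttcatgttcattgtcacattag
SGR reverse: agttctttggtgaaaatgaaga
ERF forward: gccacgacacatggaagcacac
ERF reverse: cgtatctcggcgacccacttg
COL16-like forward: gctgacgatgcttttctatgccaa
COL16-like reverse: cgaaactgcgcctgaaccaaa
CHLH, CRD, and PORC are steps of Chl biosynthesis. HCAR belongs to the Chl cycle and SGR to degradation, and the COL16-like and ERF primers target transcription factors.

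More than 3 in 4 probes tested differed between FG leaves and FGD petals, and past the signal minimum more of them were lower than higher in FG leaves. Of 70270 probes with a mean signal of at least 100, 24425 (34.8%) were higher and 30323 (43.2%) lower in FG leaves at an adjusted p under 0.05. Over 5-fold, 4914 probes (6.99%) were higher and 5034 (7.16%) lower, so that 49.4% of these calls were higher in FG leaves. Over 50-fold the counts were 642 higher and 1026 lower. The median difference over all tested probes was −0.11, and 85.8% of probes lay within 5-fold.

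**Figure D1:**
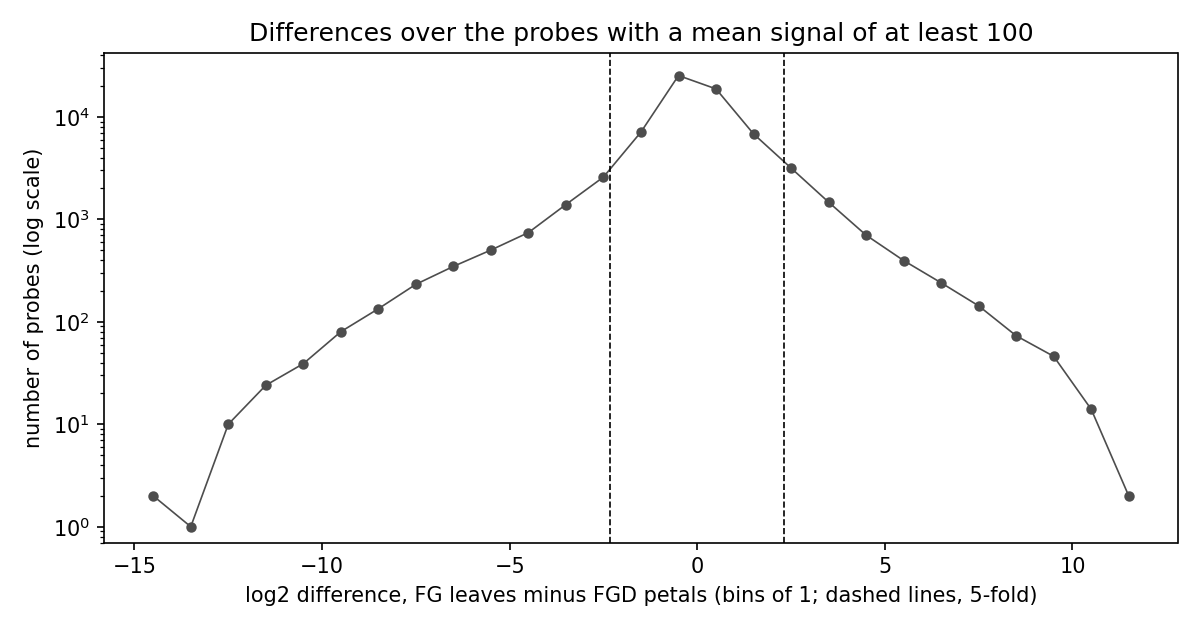
Number of probes (log scale) in each 1-unit bin of the log2 difference, FG leaves minus FGD petals, for the 70270 probes tested, with dashed lines at 5-fold. Most probes lie between the lines, and the tail on the FGD petal side is the longer one, with 1026 probes lower in FG leaves by over 50-fold against 642 higher. Without the signal minimum, which favors probes bright in petals, these counts were 1068 and 954.

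At the 4914 probes higher in FG leaves, the median level was 2.76 in FG leaves, −0.95 in FGD petals, −0.73 in FG petals, and −0.91 in FW petals. At the 5034 lower probes it was −2.76 in FG leaves, 1.38 in FGD petals, 1.13 in FG petals, and 1.11 in FW petals. Correlations over the tested probes without an outlier spot were 0.982 to 0.992 among FG leaf arrays and 0.982 to 0.990 among FGD petal arrays. Between the groups they were 0.660 to 0.703, as a description over probes that are not independent. Correlations of FG leaf arrays with FG petal arrays were 0.657 to 0.686, and with FW petal arrays 0.564 to 0.608.

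The probes with the most extreme differences among those called, detected on all 6 arrays, and without overlap between the groups were not named by any list of the study. PD0028_072319 had levels of 7.83, 7.71, and 7.94 in FG leaves and −2.06, −2.07, and −2.76 in FGD petals, a 1116-fold difference. PD0028_075945 had 6.07, 5.81, and 6.0 in FG leaves and −3.80, −3.68, and −4.28 in FGD petals, a 944-fold difference. Both were also low in FG and FW petals, with mean levels of −2.49 and −4.15 for the first and −4.33 and −3.25 for the second. In the other direction, PD0028_168248 had −3.43, −2.14, and −3.03 in FG leaves and 9.91, 9.94, and 9.73 in FGD petals, which is 6797-fold lower in FG leaves. PD0028_051418 had −3.97, −3.59, and −3.99 in FG leaves and 8.33, 8.32, and 8.49 in FGD petals, 4781-fold lower in FG leaves. Both were bright in every petal array, with means of 9.49 in FG and 9.55 in FW petals for the first and 7.16 and 7.87 for the second. All 4 had adjusted p values of at most 3.84e-10.

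By the detection flags of the scanner software, 2646 probes (1.5%) were detected on all 3 FG leaf arrays and on no FGD petal array, and 1589 of them were below background on all FG and FW petal arrays as well. The reverse held for 6256 probes (3.55%), of which 4133 were above background on all FG and FW petal arrays. These probes were mostly dim, with median signals of 26.35 for the first set and 27.39 for the second. A mean signal of 100 was reached by 147 of the first set and 985 of the second. That mean runs over all arrays of the series, most of which are petals, so it was harder to reach for probes detected only in FG leaves. The counts of 147 and 985 therefore do not compare the brightness of the sets. A further 99679 probes were detected on all 6 arrays and 41782 on none.

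FG leaves expressed most of the measured steps of Chl biosynthesis more strongly than FGD petals, but the gap was uneven along the pathway. Of 22 probes, 16 passed the signal minimum, and 11 of these were higher in FG leaves and 3 lower, beside the 34.8% and 43.2% of all probes. The remaining pair, *HEMB* and *HEME1*, did not pass the test. The gap exceeded 5-fold for *HEMA1*, *HEMA2*, and *CHLH* alone. The median difference was 0.61 over the 22 probes and 0.53 over the 16, against −0.11 over all probes tested.

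**Figure D2:**
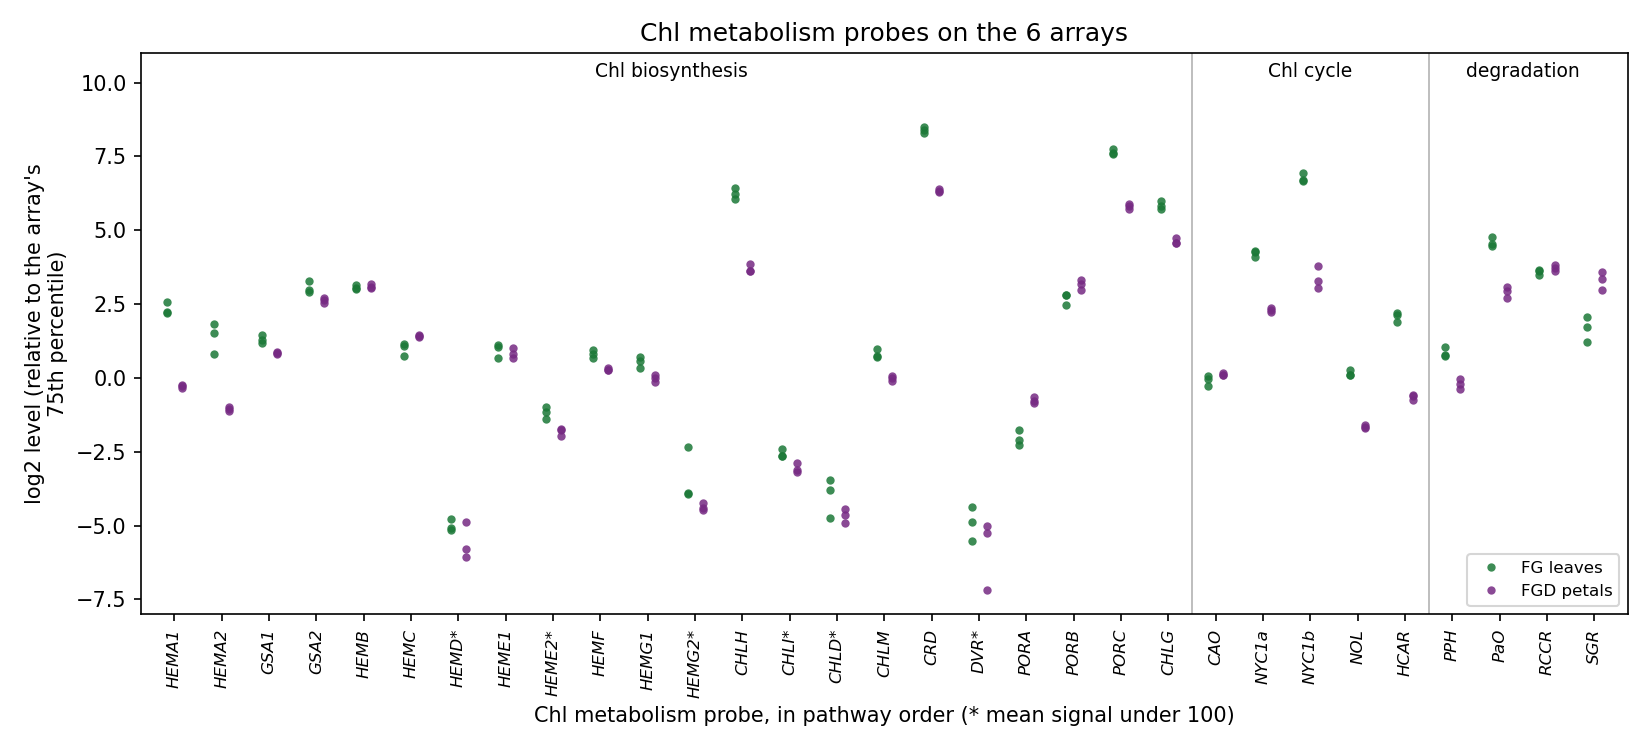
Log2 level of the 31 Chl metabolism probes on each of the 3 FG leaf arrays (green) and 3 FGD petal arrays (purple), in pathway order, with 1 point per array and an asterisk at probes with a mean signal under 100. FG leaves lie clearly above FGD petals at *HEMA1*, *HEMA2*, *CHLH*, *CRD*, *PORC*, *NYC1a*, *NYC1b*, *NOL*, *HCAR*, and *PaO*, among others, and below them at *PORA* and *SGR*.

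Glutamyl-tRNA reductase, the enzyme of the first committed step towards tetrapyrroles, had 2 probes. *HEMA1* (PD0028_007255) was at 2.58, 2.18, and 2.23 in FG leaves and −0.28, −0.35, and −0.22 in FGD petals. The difference was 2.61 ± 0.13 (6.12-fold, adjusted p = 1.73e-08), and no FGD petal array came near the leaf arrays. *HEMA2* (PD0028_048590) was at 1.51, 0.81, and 1.82 in FG leaves and −1.11, −0.97, and −1.04 in FGD petals, with a difference of 2.42 ± 0.29 (5.36-fold, adjusted p = 1.77e-05). The 2 probes share their closest Arabidopsis gene, and they differed in the petals. FGD petals exceeded FG petals by 0.89 ± 0.13 for *HEMA1* (adjusted p = 0.000898), and were lower for *HEMA2*, with a difference of −1.09 ± 0.29 (adjusted p = 0.0183). FGD petals were therefore nearer to the leaf than FG petals for *HEMA1* and farther from it for *HEMA2*, but neither difference between the petals passed the test with the slide as a block (adjusted p = 0.238 and 0.622).

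The steps between glutamate 1-semialdehyde and protoporphyrin IX differed little. *GSA1* and *GSA2*, which encode the aminotransferase that makes 5-aminolevulinic acid, were higher in FG leaves by 0.45 ± 0.10 (adjusted p = 0.00149) and 0.44 ± 0.15 (adjusted p = 0.0214). The call of *GSA2* was lost without FG leaf replicate 1 (adjusted p = 0.0889) or FGD petal replicate 3 (adjusted p = 0.0656), and under quantile normalization (0.25, adjusted p = 0.162). *HEMB*, for 5-aminolevulinic acid dehydratase, was at 3.14, 3.06, and 3.02 in FG leaves and 3.08, 3.05, and 3.19 in FGD petals, and the groups overlapped (difference −0.04 ± 0.07, adjusted p = 0.64). *HEMC*, for porphobilinogen deaminase, was lower in FG leaves (−0.42 ± 0.14, adjusted p = 0.0151), and the call was lost without FG leaf replicate 2 (adjusted p = 0.0594). *HEME1*, for uroporphyrinogen decarboxylase, gave 0.12 ± 0.15 (adjusted p = 0.479). *HEMF* and *HEMG1*, for coproporphyrinogen oxidase and protoporphyrinogen oxidase, were both higher in FG leaves, by 0.53 ± 0.13 (adjusted p = 0.00422) and 0.53 ± 0.11 (adjusted p = 0.00119). Every difference in this stretch of the pathway that passed the signal minimum was smaller than 1.5-fold.

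From Mg-chelatase onward the gap was uneven, wide at *CHLH* and *CRD* and smaller at *CHLM* and *CHLG*. The dim probes listed as *CHLI* and *CHLD*, other subunits of Mg-chelatase, are given below. *CHLH* (PD0028_022231), for the H subunit of Mg-chelatase, was at 6.44, 6.07, and 6.22 in FG leaves and 3.63, 3.62, and 3.84 in FGD petals, and the difference was 2.55 ± 0.14 (5.84-fold, adjusted p = 4.57e-08). *CHLM*, for the methyltransferase that follows, differed by 0.82 ± 0.09 (1.77-fold, adjusted p = 9.75e-06). *CRD* (PD0028_062998), for the cyclase that closes the fifth ring, was at 8.50, 8.28, and 8.38 in FG leaves and 6.28, 6.34, and 6.38 in FGD petals. This was a difference of 2.05 ± 0.12 (4.15-fold, adjusted p = 7.86e-08), and both groups kept a narrow spread. *CHLG* (PD0028_045721), for Chl synthase, differed by 1.22 ± 0.13 (2.32-fold, adjusted p = 6.1e-06), with levels of 6.0, 5.71, and 5.82 in FG leaves and 4.55, 4.58, and 4.75 in FGD petals.

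The 3 probes of protochlorophyllide oxidoreductase, the light-dependent enzyme that makes chlorophyllide, went in opposite directions. *PORC* (PD0028_042108) was at 7.75, 7.59, and 7.62 in FG leaves and 5.89, 5.72, and 5.82 in FGD petals and was 3.59-fold higher in FG leaves (difference 1.84 ± 0.11, adjusted p = 9.27e-08). *PORA* (PD0028_010915) was at −2.27, −1.76, and −2.11 in FG leaves and −0.85, −0.66, and −0.79 in FGD petals and was 2.43-fold lower in FG leaves (difference −1.28 ± 0.12, adjusted p = 2.72e-06). In neither case did the groups overlap. *PORB* (PD0028_002436) was at 2.82, 2.48, and 2.80 in FG leaves and 2.98, 3.32, and 3.18 in FGD petals, a difference of −0.46 ± 0.18 (adjusted p = 0.0377), and its call was lost without FG leaf replicate 2 (adjusted p = 0.13) and without FGD petal replicate 2 (adjusted p = 0.119) or 3 (adjusted p = 0.0808). FG petals gave gaps of 2.19 for *PORC*, −1.16 for *PORA*, and −0.11 for *PORB*, so the opposite signs of *PORC* and *PORA* were also present within the cultivar FG. In Arabidopsis, *PORA* is known from dark-grown seedlings, while *PORC* is expressed in light-grown green tissue.

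The 6 remaining biosynthesis probes were below the signal minimum and were read from the fit of all probes. *HEMD* reached no detection on the 6 arrays, and *DVR*, for the vinyl reductase, was detected on 1 FGD petal array only. *HEME2* was higher in FG leaves by 0.64 ± 0.15 (adjusted p = 0.00372), *CHLI* by 0.49 ± 0.12 (adjusted p = 0.00609), and *HEMG2* by 0.99 ± 0.35 (adjusted p = 0.0348). None of these 3 calls held in the fit with slide as a block, which gave 0.55 (adjusted p = 0.0642), 0.31 (adjusted p = 0.149), and 0.86 (adjusted p = 0.228). For *HEMG2*, FG leaf replicate 1 stood apart, at −2.35 against −3.92 and −3.88 on the other leaf arrays, and the difference was 0.47 (adjusted p = 0.0267) without it. Its call was lost without any 1 of the FGD petal arrays (adjusted p = 0.0585 to 0.0857). *CHLD* did not pass the test (0.67 ± 0.35, adjusted p = 0.131), although it did without FG leaf replicate 3 (1.04, adjusted p = 0.0186). The Arabidopsis loci listed for *CHLI* (AT1G78680.1) and *CAO* (AT3G18480.1) are not the loci under which these Arabidopsis genes are known, so the identity of both probes is uncertain.

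Set against FG petals, the gap of FGD petals to the leaf was narrower at part of the pathway. The median difference of FG leaves over the 22 probes was 0.61 from FGD petals, 0.90 from FG petals, and 1.65 from FW petals, with the leaf arrays shared by all 3 values. The difference between FGD and FG petals itself passed the test upward for 7 of the 16 probes above the signal minimum and downward for 1, *HEMA2*, beside 14.1% of all probes higher and 14.2% lower. *CHLH* was 1.02 ± 0.14 higher in FGD than in FG petals (adjusted p = 0.000723), *CRD* 0.86 ± 0.12 (adjusted p = 0.000836), and *PORC* 0.35 ± 0.11 (adjusted p = 0.0435). The difference was 0.03 ± 0.09 for *CHLM* (adjusted p = 0.843) and 0.31 ± 0.13 for *CHLG* (adjusted p = 0.093), neither of which passed. FGD and FG petals shared no slide and are linked only through FW petals. In the fit that takes slide as a block, none of the 7 higher calls and not the lower one passed the test, although all 8 kept their sign, with *CHLH* at 0.84 (adjusted p = 0.146), *CRD* at 0.41 (adjusted p = 0.236), and *HEMA2* at −0.61 (adjusted p = 0.622).

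**Figure D3:**
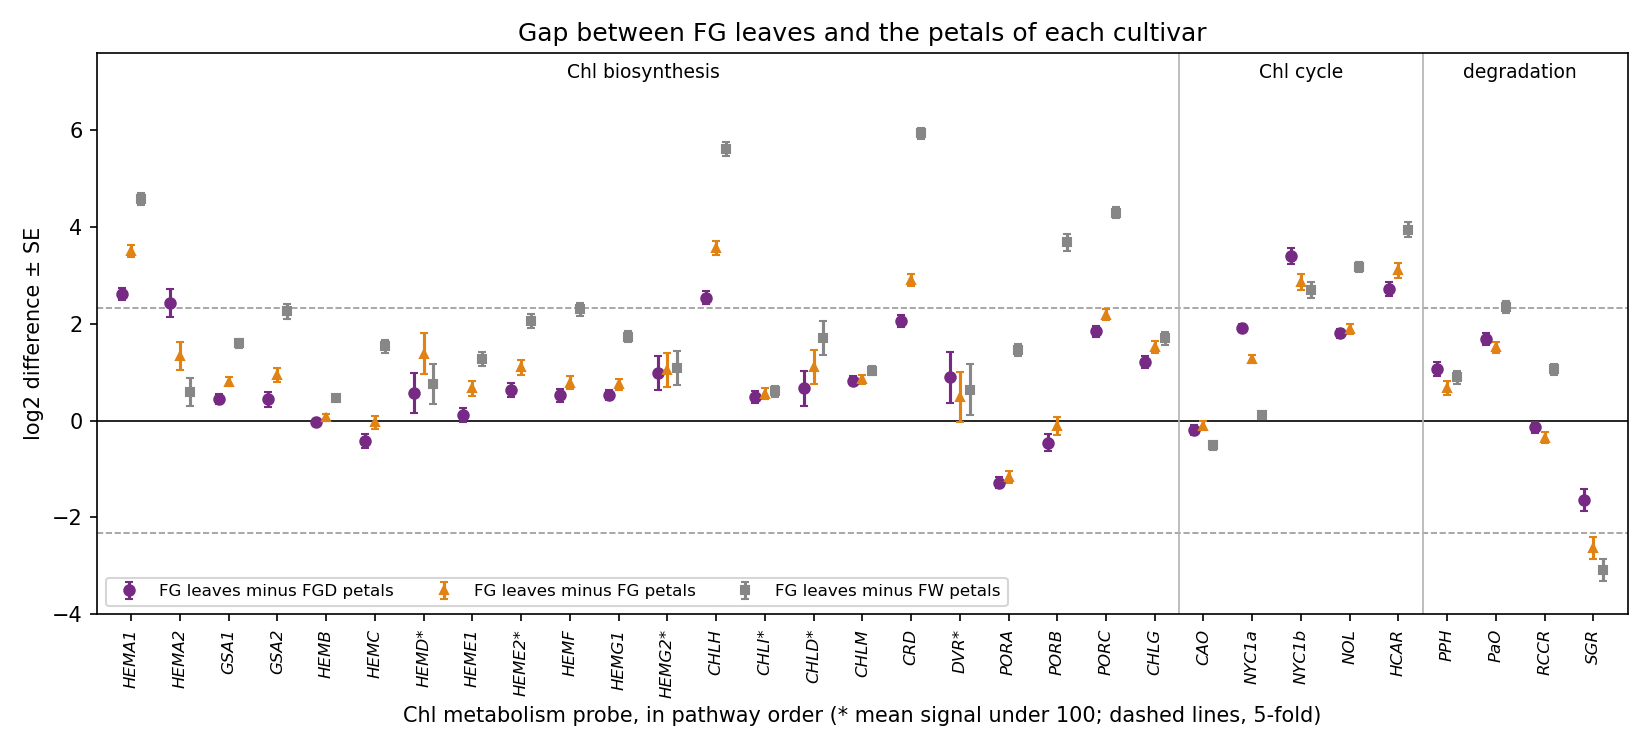
Log2 difference (± SE) of FG leaves from FGD petals (circles), from FG petals (triangles), and from FW petals (squares) for the 31 Chl metabolism probes in pathway order, with dashed lines at 5-fold and an asterisk at probes with a mean signal under 100. The gap of *CHLH* is 2.55, 3.57, and 5.61 from the 3 petals in that order, whereas *NYC1a* and *NYC1b* lie farther from the leaf in FGD petals than in FW petals.

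In the Chl cycle, 4 of 5 probes were higher in FG leaves than in FGD petals and 1 did not pass the test, beside 34.8% higher and 43.2% lower of all probes. *NYC1b* (PD0028_007614), for Chl b reductase, was at 6.94, 6.69, and 6.67 in FG leaves and 3.80, 3.27, and 3.04 in FGD petals, a difference of 3.40 ± 0.17 (10.5-fold, adjusted p = 1.61e-08). *HCAR* (PD0028_003321), for the reductase that completes the return of Chl b to Chl a, was at 2.19, 1.89, and 2.13 in FG leaves and −0.58, −0.62, and −0.75 in FGD petals, and was 6.59-fold higher in FG leaves (2.72 ± 0.15, adjusted p = 5.01e-08). These were the only cycle probes over 5-fold. *NYC1a* differed by 1.92 ± 0.08 (adjusted p = 5.75e-09), with levels of 4.31, 4.25, and 4.09 in FG leaves and 2.36, 2.22, and 2.30 in FGD petals. *NOL*, for the partner subunit of Chl b reductase, differed by 1.81 ± 0.10 (adjusted p = 3.74e-08). The probe listed as *CAO*, the oxygenase that makes Chl b, whose identity is uncertain, was at −0.26, 0.08, and −0.04 in FG leaves and 0.11, 0.15, and 0.10 in FGD petals, a difference of −0.19 ± 0.09 (adjusted p = 0.0831) that passed the test without FG leaf replicate 2 (−0.27, adjusted p = 0.0251).

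At both *NYC1* probes, FGD petals were the petals farthest from the leaf. *NYC1a* was lower in FGD than in FG petals (−0.65 ± 0.08, adjusted p = 0.000403), and the difference of FGD from FW petals was wider (−1.81 ± 0.08, adjusted p = 8.06e-08). Its mean level was 4.22 ± 0.11 in FG leaves, 2.29 ± 0.07 in FGD petals, 2.94 ± 0.09 in FG petals, and 4.10 ± 0.08 in FW petals (SD, n = 3 arrays each), so that the white petals were the closest to the leaf. *NYC1b* was also lower in FGD than in FG petals (−0.52 ± 0.17, adjusted p = 0.0385). *NOL* (0.09 ± 0.10, adjusted p = 0.522) and *HCAR* (0.38 ± 0.15, adjusted p = 0.0862) did not pass the test between FGD and FG petals. With the slide as a block, the difference between FGD and FG petals was −0.79, adjusted p = 0.0365 for *NYC1a*, and the call of *NYC1b* was lost (−0.49, adjusted p = 0.359).

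Of the 4 degradation probes, 2 were higher in FG leaves, 1 was lower, and 1 did not pass the test, beside 34.8% higher and 43.2% lower of all probes. *SGR* (PD0028_001845), for the Mg-dechelatase that starts Chl a breakdown, was at 1.21, 2.07, and 1.71 in FG leaves and 3.60, 3.35, and 2.97 in FGD petals. It was 3.13-fold lower in FG leaves (difference −1.64 ± 0.23, adjusted p = 5.74e-05), and every leaf array lay below every petal array. FGD petals were themselves lower than FG petals (−0.99 ± 0.23, adjusted p = 0.0099), so that they stood between the leaf and the other petals, but this call did not hold in the fit with slide as a block (−0.77, adjusted p = 0.371). *PaO* (PD0028_005603), for pheophorbide a oxygenase, was at 4.54, 4.46, and 4.78 in FG leaves and 3.08, 2.94, and 2.70 in FGD petals and was 3.22-fold higher in FG leaves (1.69 ± 0.12, adjusted p = 2.51e-07). *PPH*, for pheophytinase, was 2.09-fold higher (1.06 ± 0.14, adjusted p = 3.82e-05). *RCCR*, for red Chl catabolite reductase, gave −0.14 ± 0.12 (adjusted p = 0.292), with levels of 3.62, 3.5, and 3.64 in FG leaves and 3.73, 3.63, and 3.81 in FGD petals.

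Over all Chl metabolism, 28 of the 31 probes were detected on all 6 arrays. Of the 25 past the signal minimum, 17 were higher and 4 lower in FG leaves, beside 34.8% higher and 43.2% lower of all probes. With the slide as a block, in which FGD petal replicate 3 alone stands for the petals because it shares the leaf slide, 17 were higher and 2 lower. *HEMC* (−0.39, adjusted p = 0.0875) and *PORB* (−0.48, adjusted p = 0.0512) lost their calls in that fit, whereas *CHLH* remained at 2.40, *NYC1b* at 3.73, and *SGR* at −1.31.

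The transcription factors were 59 probes that the study had listed for a change between FW or FGD and FG petals. The choice used these very arrays, so the counts describe the lists and are no independent evidence of direction. In 37 probes past the signal minimum, 11 were higher in FG leaves than in FGD petals, 19 were lower, and 7 did not pass the test, beside 34.8% higher and 43.2% lower of all probes. Over 5-fold the counts were 8 and 17, beside 6.99% and 7.16% of all probes. The names are those of the closest Arabidopsis genes, and probes of 1 family may detect related transcripts.

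**Figure D4:**
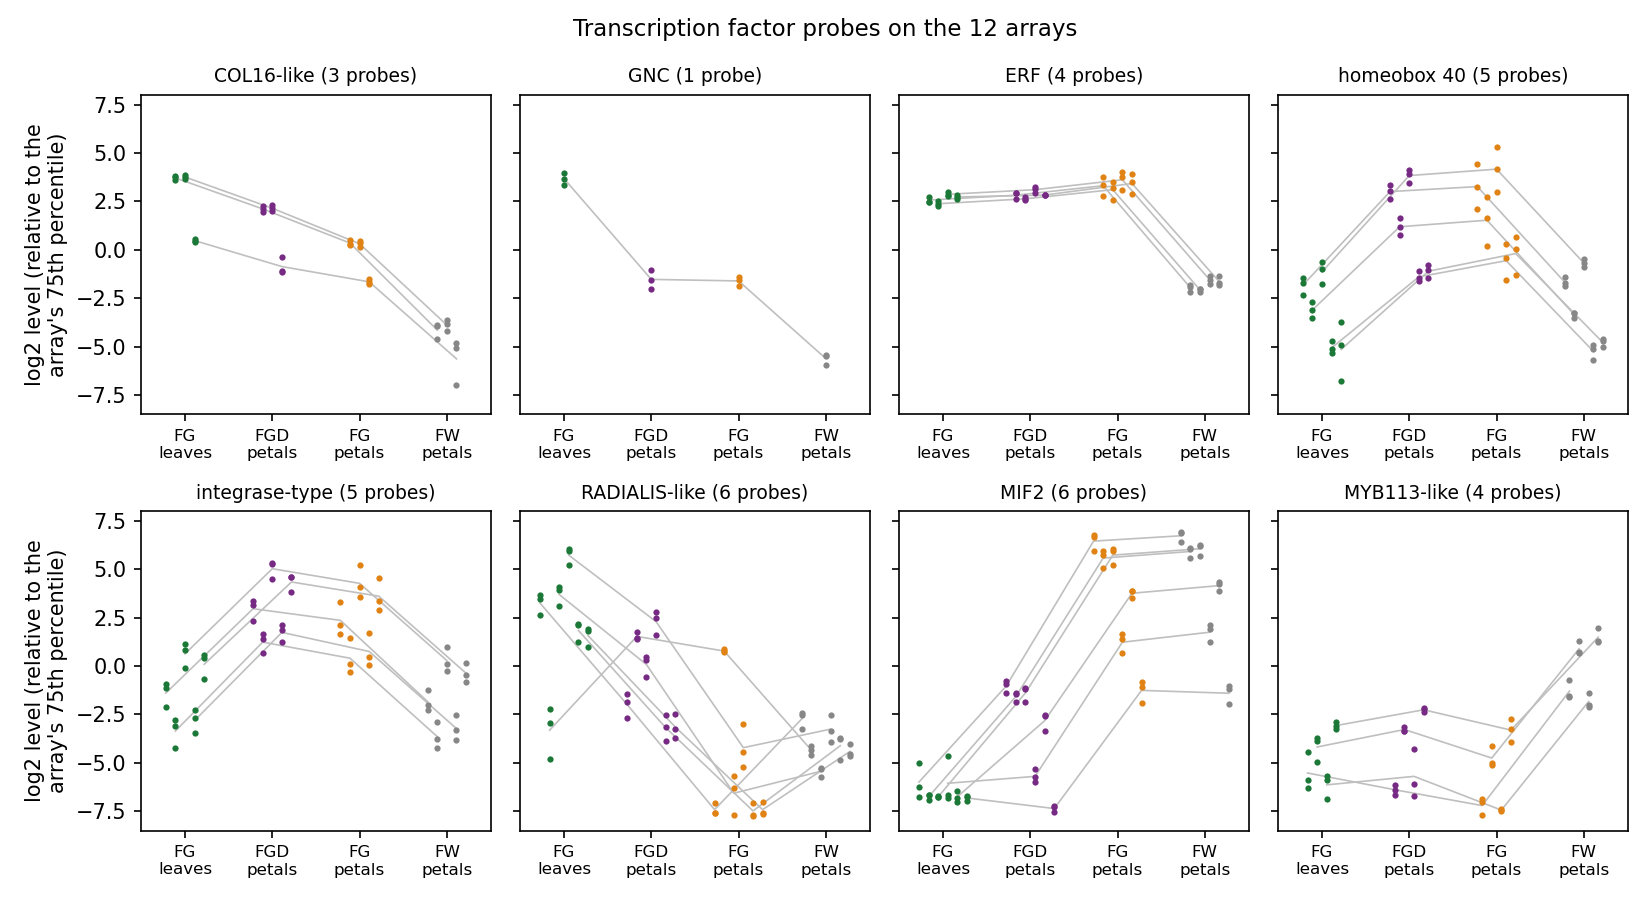
Log2 level of the probes of 8 transcription factor families on the 3 arrays of FG leaves, FGD petals, FG petals, and FW petals, with 1 point per array and a grey line joining the group means of each probe. COL16-like and GNC probes are highest in FG leaves, the means of ERF probes in FG leaves are −0.25 to −0.10 relative to FGD petals, and homeobox 40, integrase-type, and most MIF2 probes are lower in FG leaves. Every ERF and integrase-type point is a detected spot, and so is every point of the COL16-like probes PD0028_003905 and PD0028_029276. In the other panels and at the remaining COL16-like probe, some of the lowest points are not well above background. Examples are MIF2 in FG leaves and GNC in FW petals.

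Factors of the green groups split. The 3 *COL16-like* probes, for CONSTANS-like proteins with a B-box zinc finger, were all higher in FG leaves than in FGD petals. PD0028_003905 was at 3.77, 3.79, and 3.59 in FG leaves and 1.94, 2.11, and 2.28 in FGD petals, a 3.04-fold difference (1.60 ± 0.18, adjusted p = 9.18e-06), and PD0028_029276 gave 1.62 ± 0.15 (adjusted p = 2.01e-06). PD0028_117926 gave 1.34 ± 0.46 (adjusted p = 0.0208), a call that was lost without FG leaf replicate 2 (adjusted p = 0.0517), FGD petal replicate 1 (adjusted p = 0.0659), or FGD petal replicate 2 (adjusted p = 0.0605). FGD petals stood 1.77 above FG petals at the first probe (adjusted p = 0.000104) and 1.84 at the second (adjusted p = 2.79e-05), and with the slide as a block 0.99 and 1.27 (adjusted p = 0.0286 and 0.0166). At the third, PD0028_117926, FGD petals differed from FG petals by 0.79 ± 0.46 (adjusted p = 0.226), and in the fit with slide as a block the sign turned and the difference passed the test, at −1.51 (adjusted p = 0.00699). *GNC* (PD0028_145445), for a GATA factor that in Arabidopsis promotes Chl biosynthesis, was at 3.68, 3.99, and 3.37 in FG leaves and −1.03, −2.01, and −1.54 in FGD petals. It was 37-fold higher in FG leaves (5.21 ± 0.26, adjusted p = 1.69e-08), while FGD and FG petals differed by 0.08 ± 0.26 (adjusted p = 0.838). The gaps of *GNC* to the leaf were thus 5.21 for FGD and 5.29 for FG petals.

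None of the 4 *ERF* probes, which match an Arabidopsis AP2/ERF factor with an EAR repression motif, passed the test between FG leaves and FGD petals. PD0028_094749 was at 2.73, 2.48, and 2.49 in FG leaves and 2.92, 2.93, and 2.61 in FGD petals, and the groups overlapped (difference −0.25 ± 0.21, adjusted p = 0.296). The 4 differences ran from −0.25 to −0.10, with SE values of 0.19 to 0.21, and at PD0028_062703 every leaf array lay below every FGD petal array. Relative to FG petals, all 4 probes were lower in FG leaves, by −0.75 to −0.70 (adjusted p = 0.00475 to 0.0114). Against FW petals these probes were higher in FGD petals by 4.47 to 4.79. The study had listed the family for being lower in FW than in FG petals.

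A further set was higher in the green petals than in the leaf. All 5 homeobox 40 probes, for homeodomain-leucine zipper proteins, were lower in FG leaves than in FGD petals, with differences of −4.98 to −3.67. PD0028_046802 was at −1.76, −1.01, and −0.65 in FG leaves and 4.15, 3.92, and 3.44 in FGD petals, 31.5-fold lower in FG leaves (adjusted p = 3.66e-06). One of the 5, PD0028_093450, was not well above background on any leaf array and was at least 9.15-fold lower. All 5 integrase-type AP2/ERF probes were lower as well, with differences of −4.60 to −4.25. PD0028_082089 was at 0.85, −0.09, and 1.13 in FG leaves and 4.50, 5.32, and 5.27 in FGD petals, 21.1-fold lower in FG leaves (adjusted p = 8.19e-06), and FG leaf replicate 2 was the lowest array at each of these 5 probes. In FG petals the median gaps of the families were −4.95 and −3.64, close to the −4.30 and −4.40 of FGD petals.

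Members of a single family could differ in direction. The 6 *RADIALIS-like* probes encode small MYB-type proteins named for a regulator of floral asymmetry in Antirrhinum. Of these, 5 were higher in FG leaves, by 3.43 to 5.25, and 1 was lower. PD0028_092972 was at 5.94, 6.04, and 5.20 in FG leaves and 2.78, 2.50, and 1.60 in FGD petals, 10.8-fold higher in FG leaves (adjusted p = 0.000181), and its mean level in FG petals was −4.22. The 5 probes had been listed as higher in FGD than in FG petals, and in each of them FGD petals lay between the leaf and FG petals. PD0028_048158 had also been listed as higher in FW than in FG petals. There FGD petals exceeded FW petals by 0.73 (adjusted p = 0.107). The excess was 0.94 at PD0028_064158 (adjusted p = 0.0731) and 1.27 at PD0028_102746 (adjusted p = 0.00933). It was 5.51 at PD0028_006794 and 5.55 at PD0028_092972. PD0028_010170 was at −2.21, −2.96, and −4.78 in FG leaves and 1.43, 1.75, and 1.42 in FGD petals, 28.8-fold lower in FG leaves (adjusted p = 4.88e-06), and the leaf arrays were widely spread, with 2 of 3 above background.

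The *MIF2* probes, for mini zinc finger proteins that lack a homeodomain, were dark on all 3 leaf arrays at each of the 6 probes. FGD petals were above background at 4 of them, and FG leaves were lower there by at least 3.41-fold to at least 11.8-fold. These 4 probes passed the signal minimum through FG and FW petals, and with a signal floor of 100 all 4 lost their calls. PD0028_132595 was at −6.23, −5.02, and −6.75 in FG leaves and −0.91, −0.77, and −1.41 in FGD petals, while its mean level was 6.46 in FG and 6.73 in FW petals. FGD petals had been listed as lower than FG petals at this family, so they were the nearest of the petals to the leaf, without reaching it at those 4 probes. The 2 other probes were below background in both groups, and no fold change is given.

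Several factors that the study had listed as higher in FGD than in FG petals were not detected in the leaf. High levels on the FGD petal arrays were part of that choice. The *NAC* probes PD0028_034984 and PD0028_033512 were below background on all leaf arrays and were at least 20.2-fold and at least 12.2-fold lower in FG leaves than in FGD petals. The *SHN3* probes, for AP2 factors of cuticle formation in Arabidopsis, were lower by at least 5.27-fold and at least 5.12-fold, and the *KANADI 4* probe, for an organ polarity factor, by at least 4.42-fold. None of these *NAC*, *SHN3*, and *KANADI 4* probes passed the test between FG leaves and FG petals, with differences of −1.28 to 0.67. All had a mean signal under 100, and with a signal floor of 100 the *SHN3* and *KANADI 4* probes lost their calls. A zinc finger probe of the same list, PD0028_190240, was detected on all leaf arrays and was 14.8-fold lower in FG leaves (adjusted p = 0.000112). There FG leaves minus FG petals was 0.55 (adjusted p = 0.412).

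Single factors showed wide gaps in both directions. *RRTF1* (PD0028_042367), a redox responsive AP2/ERF factor, was at 2.25, 0.51, and 2.91 in FG leaves and −4.69, −4.04, and −3.11 in FGD petals, 57.2-fold higher in FG leaves (adjusted p = 6.28e-06), and FG leaf replicate 2 was the lowest of the leaf arrays. *DREB1D* (PD0028_086808), a factor of the dehydration response, was at −0.97, −3.32, and 0.09 in FG leaves and −7.37, −7.40, and −7.71 in FGD petals. It was below background in FGD petals and at least 13.6-fold higher in FG leaves (adjusted p = 0.000102), again with FG leaf replicate 2 the lowest. Both *RRTF1* and *DREB1D* had been listed as lower in FGD than in FG petals, so low levels in FGD petals were part of the choice. FG leaves minus FG petals was 1.68 for *RRTF1* (adjusted p = 0.0269) and 1.85 for *DREB1D* (adjusted p = 0.0651, which did not pass). An AP2/B3-like probe, PD0028_100279, was 11.7-fold higher (adjusted p = 3.14e-06). A bZIP probe of the TGA type, PD0028_168726, and a BEL1-like probe, PD0028_009958, were below background in FG leaves and were at least 10.5-fold and at least 11.5-fold lower there than in FGD petals.

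The *MYB113-like* probes, which match an Arabidopsis activator of anthocyanin synthesis, were dim in both groups. PD0028_044920 was at −2.88, −3.10, and −3.23 in FG leaves and −2.39, −2.17, and −2.22 in FGD petals, a difference of −0.81 ± 0.28 (adjusted p = 0.0212), against a mean of 1.5 in FW petals. PD0028_148815 gave −0.90 ± 0.34 (adjusted p = 0.0327). Both calls were lost when slide was a block (−0.85, adjusted p = 0.07, and −1.04, adjusted p = 0.0938). Leaving out FGD petal replicate 2 or 3, or FG leaf replicate 3, ended the call of the first (adjusted p = 0.052 to 0.0649). Leaving out any FGD petal array, or FG leaf replicate 2, ended that of the second (adjusted p = 0.058 to 0.126). The other 2 probes were below the signal minimum and did not pass the test.

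The remaining 14 probes were 3 ovate family probes and 11 single factors. The *ARF1* probe PD0028_033761, for an auxin response factor, was below background in FGD petals and at least 2.62-fold higher in FG leaves. A storekeeper-type probe, PD0028_001574, was 7.11-fold higher (adjusted p = 0.000755), a *MYB15* probe, PD0028_148039, 3.35-fold higher (adjusted p = 0.00364), and a MADS box probe, PD0028_107134, 2.92-fold higher (adjusted p = 4.17e-05). Lower in FG leaves were a bZIP probe, PD0028_129536, by at least 6.05-fold, an FHA domain probe, PD0028_081008, by 3.31-fold (adjusted p = 0.000477), and a RING/U-box probe, PD0028_142351, by 2.29-fold (adjusted p = 0.00237). All 7 were dim, with a mean signal under 100. The *MYB15*, FHA domain, and RING/U-box probes had been listed for a difference between FGD and FG petals, and their sign turned against FG petals. FG leaves minus FG petals was −2.22 (adjusted p = 0.000786), 2.44 (adjusted p = 4.36e-05), and 2.72 (adjusted p = 9.57e-06) in that order. The bHLH probes PD0028_103797 and PD0028_074156 gave 0.17 ± 0.55 and 0.66 ± 0.35 and did not pass the test, nor did an Aux/IAA probe, PD0028_007777 (−0.37 ± 0.78), for which the spot of FGD petal replicate 2 was left out as an outlier. The *NF-YB8* probe PD0028_076231 was below background on all leaf arrays and on 1 of 3 FGD petal arrays, with a difference of 0.39 ± 0.58 that did not pass. Of the ovate probes, PD0028_011900 and PD0028_154888 were below background in both groups, and PD0028_150392 gave 0.16 ± 0.18 and did not pass the test.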

How the data were processed

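Total RNA of each sample was labeled with Cy3 and hybridized by the 1-color method to a custom array of 176026 probes and 4854 control spots, and the study describes the replicates as biological. The authors deposited scanner output, in which Feature Extraction gives a background-subtracted intensity for each spot, not scaled between arrays, together with background and outlier flags. The software version named in the file headers differs from that of the study and of the submitters' processing notes. The authors also deposited a log2 table centered per probe on an unstated value. Its differences between FG leaves and FGD petals equalled those computed here to within 3.08e-05. The flags were read as deposited and take only the values 0 and 1.

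From these, log2 values were computed, and each array was scaled by subtracting its 75th percentile over non-control probes. Control spots and outlier spots were left out, and no spot was saturated. The 70270 probes with a mean signal of at least 100 over the 12 arrays were fitted with limma 3.58.1 (R 4.3.3, data.table package 1.17.8), with 1 mean for each of 4 groups over 12 arrays, moderated variances, and Benjamini-Hochberg adjustment. Named probes below that minimum were read from a fit of all probes. A probe of the whole array was called over 5-fold at an adjusted p under 0.05, and a listed probe at an adjusted p under 0.05. For a probe detected on no array of a group, the fold change is given as a bound ("at least"). In the bound, each array of the undetected group takes the probe's own level or that of the dimmest detected probe, whichever is higher.

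The named probes are the 31 Chl metabolism and 59 transcription factor probes that the study pairs with gene names, plus the 2 unnamed probes with the largest positive and the 2 with the largest negative difference among called probes above background on all 6 arrays without overlap. The members and lists were chosen with earlier results of these data known. The script was tested on simulated data. With 3 arrays in a group, the number of arrays limits the precision, and an exact test of 1 value could not go below p = 0.1. Same-numbered arrays of the 2 groups did not deviate together. Alternatives were other scalings, backgrounds, filters, thresholds, variances, blocks, and left-out arrays. Plots were made in matplotlib 3.10.9 under Python 3.11.15.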

Additional observations from a re-analysis of the deposited data

How the results depend on the processing

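Other thresholds moved the counts most. With a fold change over 2, 12984 probes were higher and 13132 lower in FG leaves, and with no minimum 24425 and 30323. With no filter on signal the counts were 10101 and 7835, and with a filter on probes above background on all arrays of 1 group 9279 and 7806. Normexp background correction left 3649 higher and 2747 lower, and a signal floor of 100 left 4376 and 3001, so that 57.1% and 59.3% of calls were higher in place of 49.4%. Leaving out 1 array left at least 4730 higher and 4964 to 5182 lower. Scaling shifted the median of all probes to between −0.21 and −0.09. Of the probes called over 5-fold, 9471 of 9948 were called in the same direction with the slide as a block.

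Among Chl probes, the number lower in biosynthesis was 1 in place of 3 with the slide as a block, and likewise with FGD petal replicate 3 alone, and 1 to 3 when an array was left out. The number lower in the cycle was 1 in place of 0 under normexp and under scaling to the probes above background on all arrays, and 0 to 1 when an array was left out. The number lower in degradation was 2 under quantile normalization. The median of the biosynthesis list was 0.39 with the signal floor, and that of the cycle list 1.73 under normexp. The number of transcription factor probes lower in FG leaves was 10 in place of 19 with the floor. Probes detected only in FGD petals numbered 10873 with replicate 3 alone. Under normexp the dim probes PD0028_148815 (0.18), PD0028_075950 (0.44), PD0028_154888 (0.51), and PD0028_007777 (0.45) changed sign, and the cause was not tested. Of 1800 values of single probes under the alternatives, 72 lost and 19 gained a call in the same direction. The sign changed in 24, of which these 4 were called in either setting and the other 20 in neither.

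Deviations of same-numbered arrays correlated at −0.02, −0.11, and −0.06. No shared deviation was seen, but such values cannot tell whether samples were collected in pairs. With the replicate block, 4916 probes were higher and 5030 lower, and of the listed probes PD0028_148815 alone lost its call (adjusted p = 0.0522). Signal over background limits what can be said of dim probes, for which many differences are only bounds.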
